A study of Homo sapiens with 5 samples.

Results

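The 468 introns described here are those that had no more than 1.5 times as many reads with a transfected randomer oligo as with a control oligo, at 9 h and again at 16 h, out of 6173 introns counted well enough to judge and 22009 intron rows in all. One row holds the summed intron reads of 1 gene symbol. An intron was judged when its mean over the 4 oligo libraries was at least 50 counts. Its count plus 0.5 was divided by the exon total of the same library, and the randomer value was divided by the control oligo value at each time. The randomer over control oligo ratios thus chose the introns, so these ratios, and exon changes in the same libraries, are given as a description. Counts of genes called in fits of these libraries stand beside the share called over all genes and support nothing here.

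The cells were A549, an adherent human lung carcinoma epithelial line. There were 5 groups with 1 library each: cells given 50 nM of the 23N randomer oligo for 9 h, the same for 16 h, 50 nM of a control oligo for 9 h, the same for 16 h, and Lipofectamine with no oligo for 16 h (mock). All 5 received Lipofectamine, and neither the chemistry nor the sequence of either oligo is given in the sources used here. RNA was depleted of ribosomal RNA and sequenced, so unspliced RNA was kept. Each group held 1 library, so a difference at 1 time cannot be set against replicates, and intervals of ratios below cover counting error only. Exon counts summed to 1795422 and 1478485 with the randomer at 9 h and 16 h, 2634844 and 2602385 with the control oligo, and 1961586 in mock. Intron counts summed to 1773622 and 1952809 with the randomer, 741996 and 775029 with the control oligo, and 604551 in mock. Among the epithelial markers, KRT8 had 1655 and 922 exon counts with the randomer, 2480 and 2397 with the control oligo and 1732 in mock. EPCAM, SFTPB and NKX2-1 were at or near 0 in all 5 libraries. Exon counts of 6 leukocyte markers summed to 81 and 140 with the randomer, 0 and 18 with the control oligo and 6 in mock, with PTPRC, CD3E and LYZ at 0 throughout, and 4 endothelial markers summed to 58 and 81 with the randomer and to 0 in the other 3 libraries. Exon counts of 5 fibroblast markers summed to 293 and 130 with the randomer, 514 and 308 with the control oligo and 293 in mock. Most of these were COL1A1, with 276 and 115, 504 and 275, and 284, while COL1A2 and PDGFRB were at 0 throughout. How far reads from markers of other cell types enter the intron counts was not tested.

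Introns are the stretches of a primary transcript that the spliceosome removes and that are normally degraded within minutes in the nucleus. Reads from them come from RNA that is not yet spliced, from introns retained in the mature message, and from separate transcripts that lie inside the host gene, such as small nucleolar RNAs (snoRNAs), which guide chemical modification of ribosomal RNA, or processed pseudogenes, which are copies of a messenger RNA inserted back into the genome. A count in an intron row can therefore come from another RNA than the host's, and which of these sources is read depends on the gene.

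Some of the most counted of the 468 rows lay over such embedded sequences, which are shown here because the counts beside them are described below. A pair of snoRNAs whose own counts came close to their host's intron row are printed whole, from GENCODE on GRCh38, with the ACA box that defines this class of snoRNA in capitals. SNORA57 lies in METTL12 at chr11:62665422-62665570, plus strand, and SNORA78 in SNHG9 at chr16:1965184-1965310, plus strand. The counts themselves were made on hg19.
SNORA57: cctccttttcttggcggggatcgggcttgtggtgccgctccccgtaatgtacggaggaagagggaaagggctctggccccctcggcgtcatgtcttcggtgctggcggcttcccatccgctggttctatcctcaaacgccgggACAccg
SNORA78: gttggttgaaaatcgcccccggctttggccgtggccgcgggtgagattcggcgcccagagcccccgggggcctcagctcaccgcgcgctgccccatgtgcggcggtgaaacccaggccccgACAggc

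Processed pseudogenes inside a further pair of hosts are shown as 60 bases from the middle of their match to the coding sequence of the parent gene, above the same 60 bases of the parent, with the bases that differ in capitals. They show how little separates the copies: 0 bases differ in the first pair and 1 in the other. NPM1P27 lies in FAM172A on chromosome 5 and AC008038.1 in CHCHD3 on chromosome 7, both on the strand of the host.
NPM1P27: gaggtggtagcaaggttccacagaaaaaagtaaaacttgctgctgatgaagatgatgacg
NPM1: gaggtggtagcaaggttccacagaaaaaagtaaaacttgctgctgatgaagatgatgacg
AC008038.1: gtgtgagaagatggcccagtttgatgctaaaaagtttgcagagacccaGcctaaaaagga
EEF1G: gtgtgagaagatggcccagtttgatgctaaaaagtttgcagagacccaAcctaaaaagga

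The 468 introns made up 7.58% of the introns at the minimum. The median log2 ratio of randomer over control oligo among them was 0.01 at 9 h and -0.11 at 16 h, against 1.89 and 2.20 for the other 5705 introns. The ratio was under 1 at both times for 159, at 9 h only for 74, at 16 h only for 105, and at 1 or above at both times for 130. Summed, they took 4.02% and 2.79% of all intron counts with the randomer at 9 h and 16 h, 14.4% and 14.4% with the control oligo, and 13.2% in mock. In counts per 1000000 exon counts of the library (CPM), their sum was 39724 and 36794 with the randomer, 40481 and 42957 with the control oligo and 40653 in mock, so it differed little among the 5 libraries. The other introns at the minimum summed to 838865 and 1118300 CPM with the randomer, 205767 and 215492 with the control oligo, and 224950 in mock.

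**Figure D1:**
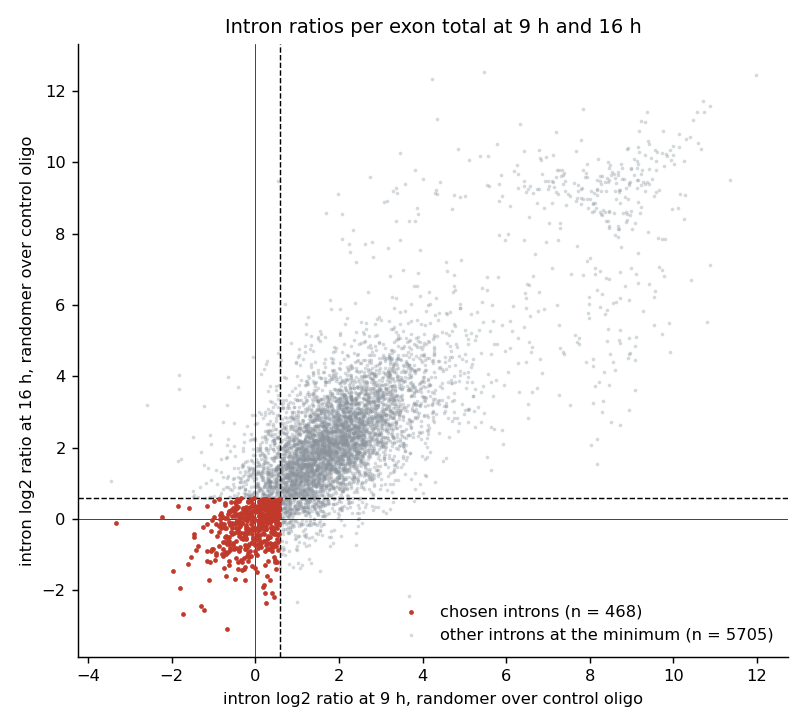
Each point is 1 of the 6173 introns at the minimum, by its log2 ratio of randomer over control oligo per exon total at 9 h (horizontal) and 16 h (vertical); dashed lines mark the ratio of 1.5 that chose the 468 introns in red. The chosen introns are the lower left corner of 1 continuous cloud, and no gap separates them from the 5705 others in grey.

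The chosen introns were not set off from their neighbours by a gap. Just inside the limit lay CD46, a complement regulator, with log2 ratios of -0.34 and 0.58, EXOG, a mitochondrial nuclease, with -0.04 and 0.58, and SAAL1 with 0.58 and 0.57. Just outside lay TMEM117 with 0.31 and 0.59, HEATR3 with 0.59 and -1.36, and ARHGEF40 with 0.43 and 0.59. Counts were modest: the mean over the 4 oligo libraries was under 100 for 236 of the 468 and 500 or more for 23. The exact 95% counting interval of the ratio lay wholly under 1.5 at both times for 235 introns, and wholly under 1 at both times for 49. The share chosen depends on the minimum. Taken over the control oligo libraries alone, the minimum was met by 4496 introns, and 609 of these (13.5%) met the ratio limit. The choice also rests on division by exon totals: with intron totals in their place, 3546 introns met the same limit, and with the sum of exon and intron totals 1331 did. Intron totals shift every log2 ratio by -1.81 at 9 h and -2.15 at 16 h, which puts all 468 introns below the control oligo at both times, so a ratio above 1 here holds per exon total only.

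The mock library took no part in the choice, although the randomer library at 16 h did. The ratio of randomer over mock at 16 h was at most 1.5 for 364 of the 468 introns (77.8%), against 523 of the other 5705 (9.17%) and 14.4% of all introns at the minimum. Randomer was at least 2-fold above mock for 42 of the 468, where 77.3% of all introns at the minimum were. The 2 times can also be set against each other, as a description only, since the ratios at both times chose the introns. The minimum was a mean over all oligo libraries, so a gain with the randomer could itself bring an intron to the minimum. That can lower the share of all introns within the limit, here and against mock. Its part in these contrasts was not tested. An intron ratio of at most 1.5 held for 970 introns at 9 h (15.7%), and 48.2% of those also met it at 16 h, where 13.9% of all did. Their median log2 ratio at 16 h was 0.61, against 2.30 for the introns that did not meet it at 9 h. Choosing at 16 h instead gave 861 introns, of which 54.4% met the limit at 9 h. Of the 970 chosen at 9 h alone, 348 were at least 2-fold higher with the randomer at 16 h, so many introns met the limit at 1 time and not at the other.

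Between the control oligo and mock, both at 16 h, the 468 introns had a median log2 ratio of 0.10. The control oligo was at least 2-fold above mock for 53 of them and at least 2-fold below for 13, where 12% and 10.5% of all introns at the minimum were. Among the introns not chosen the numbers were 685 and 634. The rule used the control oligo libraries and favours introns that are high in them, which can itself raise this ratio. Its part was not tested. MOV10, an RNA helicase, had 29 and 64 intron counts with the randomer and 76 and 100 with the control oligo but 1 in mock. EIF3F, a subunit of translation initiation factor eIF3, had 60 and 29 with the randomer, 65 and 49 with the control oligo and 5 in mock. For both genes the mock library stood apart from the other 4. At the other end, CMTM8 had 43 and 36 with the randomer, 89 and 46 with the control oligo and 101 in mock.

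The 10 introns with the lowest ratios had at most 0.5 of the control oligo level at both times. PDIA3, an endoplasmic reticulum enzyme that forms disulfide bonds, had 62 and 51 intron counts with the randomer at 9 h and 16 h, 316 and 343 with the control oligo, and 197 in mock. Both randomer libraries lay far below the other 3, with log2 ratios of -1.79 (interval -2.21 to -1.40) and -1.92 (-2.39 to -1.51). Its exon counts were 303 and 218 with the randomer, 784 and 991 with the control oligo and 587 in mock, a fitted exon log2 change of -1.09 (SE 0.26). APEX1, the main endonuclease of base excision repair, had 36 and 25 intron counts with the randomer, 130 and 244 with the control oligo, and 59 in mock. The control oligo libraries stood above mock here, with a log2 ratio of 1.63 at 16 h, so the ratio to mock was -0.81, smaller than the -2.45 to the control oligo. NEIL3, a DNA glycosylase of the same repair pathway, had 71 and 46 intron counts with the randomer, 318 and 195 with the control oligo and 93 in mock, while its exon counts of 297 and 196 with the randomer, 279 and 314 with the control oligo and 246 in mock were not lower per library total. COL3A1, a fibrillar collagen, had 140 and 103 with the randomer, 439 and 421 with the control oligo, and 524 in mock, and its fitted exon log2 change was -1.41 (SE 0.27). The others were ARRB2, PLD3, SLC22A18, ERGIC3, INTS10 and LIPA, with 9 to 63 intron counts in the randomer libraries and 80 to 206 in the control oligo libraries. In all 10, both randomer libraries lay below mock per exon total. The 10 were picked by low randomer counts against the control oligo, which can itself put those counts below mock, so this is a description.

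**Figure D2:**
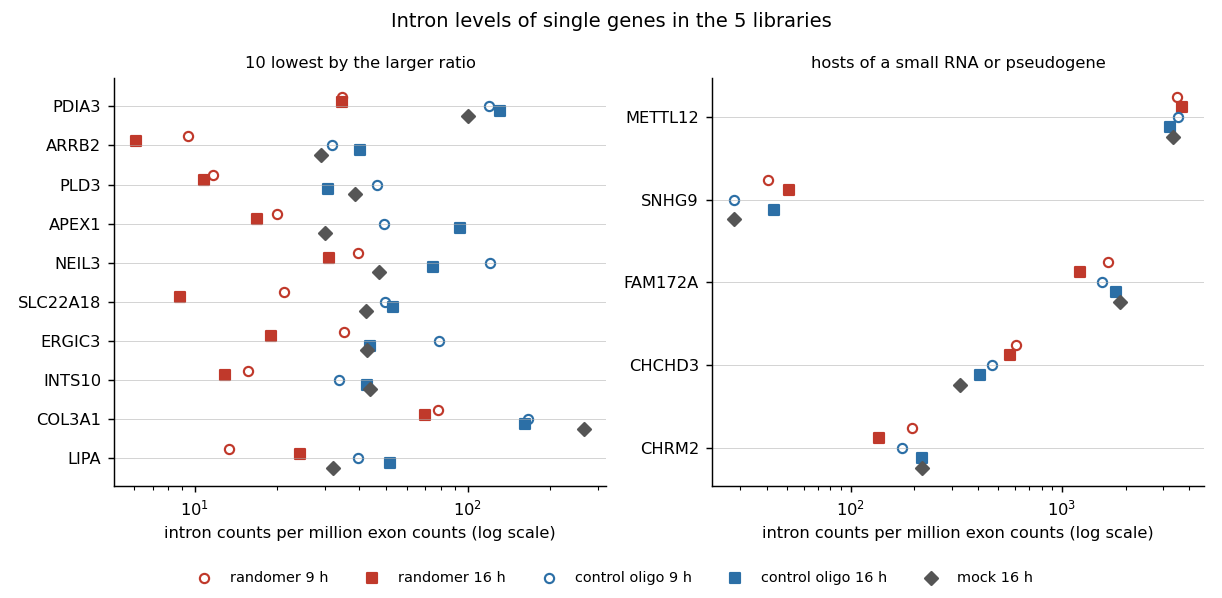
Intron counts per 1000000 exon counts (log scale) in the 5 libraries, on the left for the 10 introns with the lowest ratios and on the right for 5 hosts of a small RNA or pseudogene; red is randomer, blue control oligo, grey mock, open symbols 9 h and filled ones 16 h. On the left the red points lie left of all others in each of the 10 genes, while METTL12, SNHG9 and CHCHD3 on the right show no such step.

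Exons of the same genes were counted separately. Of the 428 genes tested in edgeR's quasi-likelihood fit of the 4 oligo libraries with time as a term, 78 (18.2%) were called lower with the randomer at an adjusted p under 0.05, where 3.24% of all 11407 genes tested were. METTL12 was the 1 gene called higher, where 7.03% of all genes tested were. Without the time term 21 of the chosen genes were called lower, of 88 genes in all. These counts come from the libraries that chose the introns and are given as a description. The median exon log2 ratios were -0.33 (9 h) and -0.71 (16 h), against 0.14 and 0.04 for genes of the other introns. Where exon counts averaged 50 or more, the lowest fitted exon changes were in COX11, a copper chaperone of cytochrome oxidase, at -1.49 (SE 0.45), PCCB, a subunit of propionyl-CoA carboxylase, at -1.47 (SE 0.50), EIF2AK1, the haem-regulated kinase of the stress response, at -1.45 (SE 0.51), RBM42 at -1.44 (SE 0.32) and SMARCD2 at -1.41 (SE 0.65). COX11 had 73 and 29 exon counts with the randomer, 165 and 277 with the control oligo and 135 in mock. The calls on COX11, PCCB and EIF2AK1 were each lost in some alternative fits, the one without the time term among them, and SMARCD2 was not called. The highest were METTL12 at 2.86 (SE 0.46), GABRE at 1.5 (SE 0.61), GSTP1, a glutathione transferase, at 1.0 (SE 0.37), FBXL6 at 0.95 (SE 0.49) and BOD1 at 0.89 (SE 0.48). The fit of intron counts used the libraries that chose the introns, so its calls restate the choice and nothing is read from them. In it 6 of the 468 were called lower, where 0.0501% of the 11983 introns tested were: APEX1, ARRB2, COL3A1, NEIL3, PDIA3 and SLC22A18. With edgeR 0 were called higher, also at an unadjusted p under 0.05, where 47.6% of all introns tested were. With DESeq2 2 were called higher, of 6999 introns called higher in all. Set against its own exons, the intron ratio was the higher of the pair for 270 genes at 9 h, for 304 at 16 h and for 209 at both times. The median of intron minus exon log2 ratio was 0.23 and 0.50, against 1.65 and 2.06 in the other genes.

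The genes of the chosen introns had shorter introns and higher levels than the others. Total intron length, counting bases outside every annotated exon, had a median of 24.3 kb over 462 matched genes against 57.5 kb over 5634. Of the 462, 96 (20.8%, exact 95% interval 17.2 to 24.8%) had under 10 kb, against 503 of the 5634 (8.93%, 8.20 to 9.70%). At least 1 kb was left in 444 of the 462 and in 5584 of the 5634. The rest include METTL12 at 0.003 kb and UQCRB at 0 kb, whose rows still held intron counts. For such genes this length is not that of the counted intron, and its part in these shares was not tested. The share of introns chosen was 16.0% of those under 10 kb, 15.3% at 10 to 20 kb, 8.93% at 20 to 40 kb, 6.17% at 40 to 80 kb, 3.09% at 80 to 160 kb and 3.50% at 160 kb or more. By exon level in mock, the share chosen was 3.93% of genes under 1 CPM per kb and 22.4% of those at 50 or more. By intron level in mock, in the same unit and over genes with at least 1 kb of intron, the share chosen went up through all 6 bins. It was 2.01% in the lowest and 28.3% in the highest. Overlap with another annotated gene was about as frequent in the chosen genes (64.1%) as in the others (69.0%), and an annotated snoRNA in an intron was found in 4.11% of the chosen genes and 3.11% of the others.

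**Figure D3:**
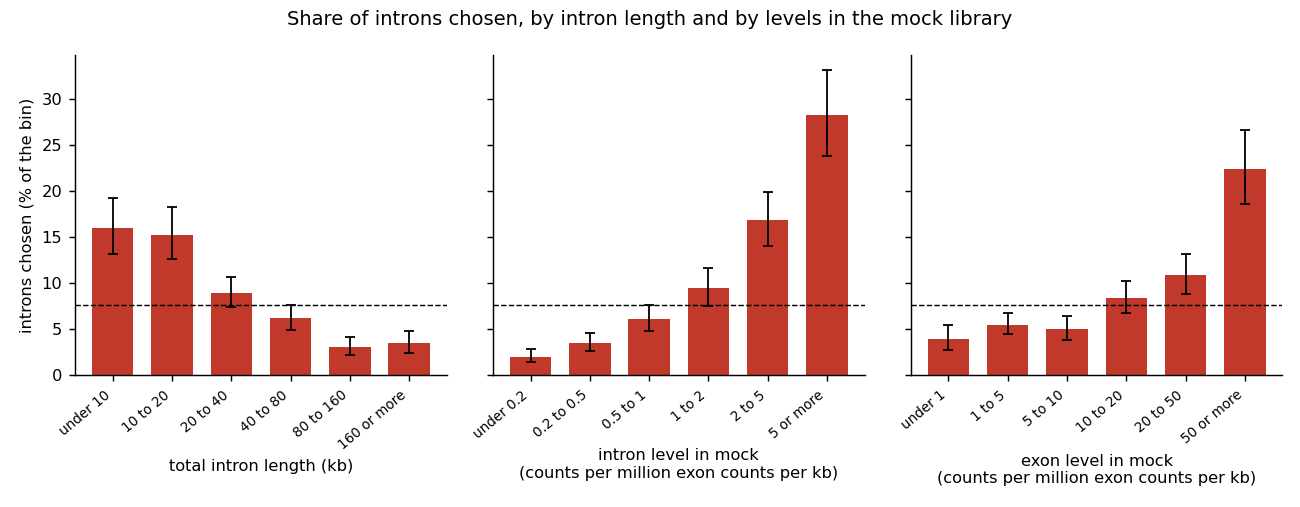
Bars give the percent of introns chosen in bins of total intron length (left), intron level in mock (middle) and exon level in mock (right). Lines on the bars are exact 95% binomial intervals over genes. The middle panel holds genes with at least 1 kb of intron. The dashed line is the 7.58% of all introns at the minimum. The share is 16.0% under 10 kb and about 3% above 80 kb, and reaches 28.3% and 22.4% in the highest bins of intron and exon level.

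Per kb, the chosen introns and the others differed more in the control libraries than with the randomer. Intron levels per kb were taken only for genes with at least 1 kb of intron, 444 chosen and 5584 others. METTL12 is thus left out. The median intron level of chosen genes was 1.73 and 1.76 CPM per kb with the randomer at 9 h and 16 h, 1.99 and 2.02 with the control oligo, and 1.90 in mock. In the other genes it was 1.76 and 2.41 with the randomer, 0.43 and 0.46 with the control oligo, and 0.46 in mock. With the randomer the chosen introns were thus about as dense in reads as the rest at 9 h and less dense at 16 h. In the control oligo and mock libraries they were several times denser. The median exon level of the chosen genes was 12.4 and 10.7 with the randomer, 16.2 and 15.3 with the control oligo and 14.0 in mock, in the same unit. The rule favours introns that already have many reads in the control libraries, since 50 counts on average with no gain needs a level near that in the controls. The part of this in the lengths and levels above was not tested.

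**Figure D4:**
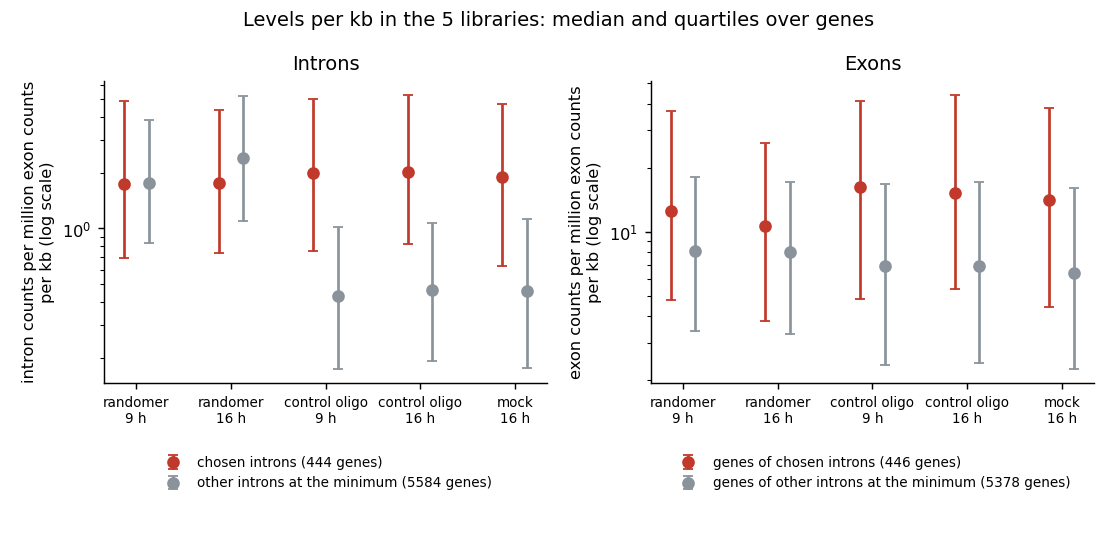
CPM per kb (log scale) of introns (left) and exons (right) in the 5 libraries, as medians (points) and quartiles (bars) over genes, red for chosen introns and grey for the others. In introns the grey medians are 1.76 and 2.41 with the randomer and 0.43 to 0.46 in the other 3 libraries, while the red ones stay between 1.73 and 2.02.

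The most counted of the 468 rows was METTL12, a mitochondrial methyltransferase gene, with 6314 and 5466 intron counts with the randomer, 9278 and 8442 with the control oligo and 6582 in mock. The separate exon row of SNORA57, the snoRNA in its intron printed above, had 6369 and 5705 with the randomer, 9353 and 8558 with the control oligo and 6662 in mock. The snoRNA row was 101 to 104% of the host's intron row in every library; whether the same reads were counted in both rows was not tested. The exons of METTL12 had 234 and 108 counts with the randomer, 44 and 28 with the control oligo and 24 in mock. SNHG9, a snoRNA host with no protein, had 73 and 75 intron counts with the randomer, 74 and 113 with the control oligo and 55 in mock, and SNORA78 within it had 98.6 to 127% of these. In RPL7A, a ribosomal protein gene, SNORD36C had 33.0 to 61.5% of the host's intron counts, and in RPL10 SNORA70 had 44.4 to 96.2%. In NCAPD2, a condensin subunit, the intron row held 183 and 126 counts with the randomer, 193 and 201 with the control oligo and 167 in mock, while SCARNA10, annotated inside it, had 1994 and 1732, 2713 and 2975, and 2786. That small RNA had many times the counts of its host's intron row. Nucleolin (NCL), another snoRNA host, had 1090 and 672 intron counts with the randomer, 1361 and 4942 with the control oligo and 998 in mock. The control oligo library at 16 h stood apart from the other 4, and against mock the log2 ratio at 16 h was -0.16 in place of -2.06.

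Rows with at least 10 times as many intron as exon counts in mock numbered 341 among all introns at the minimum, and 36 of these were chosen (10.6%). Processed pseudogenes with at least 95% identity to a protein-coding transcript over at least 80% of their length were looked for within the annotated gene span. They lay in 7 of the 36 (19.4%) and in 23 of the other 305 (7.54%). Rows with no annotation match, LOC728730 and LOC283788 among the 36, count as having none. Over all chosen genes the share was 17 of 462 (3.68%), near the 3.71% of the others, but the chosen genes had shorter introns. By total intron length it was 4.82% of the chosen genes against 2.14% of the others at 40 to 80 kb. At 80 to 160 kb it was 10.3% against 4.98%, and at 160 kb or more 22.2% against 11.2%. These shares rest on 4, 4 and 8 chosen genes. It was 0% against 0.71% at 10 to 20 kb, 0.93% against 0.55% at 20 to 40 kb, and 0% in both under 10 kb. A processed pseudogene of any identity lay in 15.2% of the chosen genes (exact 95% interval 12.01 to 18.8%) and in 22.9% of the others (21.8 to 24.02%). The part of intron length in that difference was not tested. FAM172A had 2951 and 1795 intron counts with the randomer, 4067 and 4661 with the control oligo and 3695 in mock, over exon counts of 37 and 22 with the randomer, 21 and 73 with the control oligo and 28 in mock. NPM1P27 within it matched the message of nucleophosmin (NPM1), an abundant nucleolar chaperone, at 98.2%. The exon row of NPM1 held 530 and 249 counts with the randomer, 770 and 837 with the control oligo and 431 in mock, fewer than the FAM172A intron in each library.

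CHCHD3, a mitochondrial inner membrane protein, had 1081 and 842 intron counts with the randomer, 1233 and 1066 with the control oligo and 643 in mock. AC008038.1 within it is 99.2% identical to EEF1G, a translation elongation factor subunit, whose own exon row had 81 and 53 with the randomer, 111 and 165 with the control oligo and 33 in mock. CHRM2, a muscarinic receptor whose exon row was 0 in mock, had 348 and 200 with the randomer, 462 and 566 with the control oligo and 425 in mock, with KRT8P51 94.2% identical to the epithelial keratin KRT8. That pseudogene is 274 bases long, lies on the strand opposite to the host and is under the 95% limit, and KRT8 had more exon counts than the CHRM2 intron row in every library. How many of the intron counts in these rows come from the parent messages was not tested, because the rows hold no positions within an intron.

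**Figure D5:**
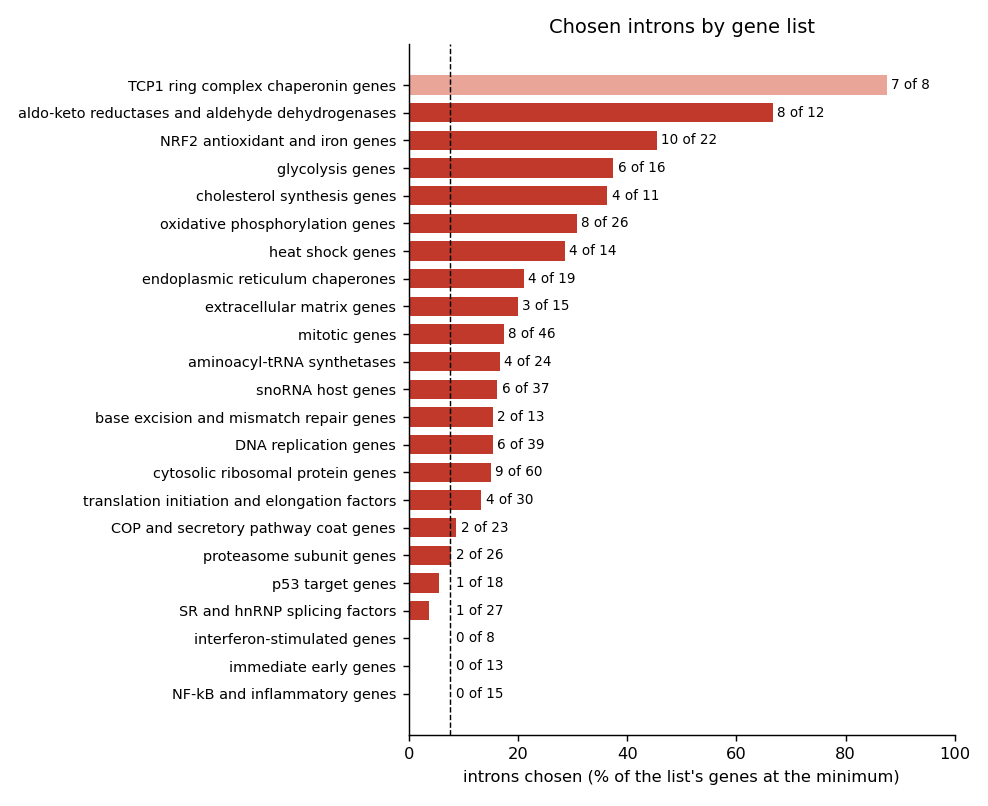
Bars give the percent of a gene list's introns at the minimum that were chosen, with counts beside them; the dashed line is the 7.58% of all introns, and the pale bar is a list made after the values were seen. The share runs from 87.5% of the TCP1 ring complex genes to 0% of the immediate early, NF-kB and interferon-stimulated lists.

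Grouped by function, the lists with the highest shares were those of metabolic enzymes and chaperones. The share chosen also differed with level and intron length, and was 22.4% of all genes with an exon level of 50 or more CPM per kb in mock. The part of level and length in the list shares was not tested. A549 carries a mutated KEAP1, the inhibitor of the transcription factor NRF2, and as background its NRF2 targets are known to be constantly active. Of aldo-keto reductases and aldehyde dehydrogenases, 8 of 12 introns at the minimum were chosen, and 6 of them had ratios under 1 at both times. ALDH1A1, a retinal dehydrogenase, had 814 and 382 intron counts with the randomer, 1335 and 1398 with the control oligo and 994 in mock. Its log2 ratios were -0.16 and -1.05. AKR1C3, a hydroxysteroid dehydrogenase, had 180 and 147 with the randomer, 504 and 524 with the control oligo and 437 in mock, and both randomer libraries lay below the other 3. AKR1C1, a close paralog whose reads may be split with those of AKR1C2 and AKR1C3, had 10 and 36 with the randomer, 154 and 69 with the control oligo and 27 in mock, so its low ratio at 9 h (log2 -3.33) did not recur at 16 h (-0.11). AKR1B10 had 114 and 103 with the randomer, 341 and 324 with the control oligo and 263 in mock. Exons of 5 of the 8 genes were called lower, where 18.2% of the chosen genes tested and 3.24% of all genes tested were.

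Of the NRF2 antioxidant and iron genes, 10 of 22 were chosen, among them NQO1, TXNRD1, PRDX1, PGD, TKT, FTH1, GSR, ABCC3 and UGDH. They serve quinone reduction, thiol and NADPH supply, iron storage, export and glucuronidation. Exons of 5 of the 10 were called lower, beside the same 18.2% and 3.24%. TKT, transketolase, had 253 and 194 intron counts with the randomer, 426 and 436 with the control oligo and 354 in mock. NQO1, the quinone reductase, had 88 and 60 with the randomer, 132 and 104 with the control oligo and 79 in mock, and its log2 ratios of -0.03 and 0.03 were near 0 at both times. Of the 22 introns, 6 were at least 2-fold higher with the randomer at both times, where 66.2% of all introns at the minimum were.

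RefSeq promoters of GRCh38.p14, 250 bases before to 50 after the gene's start, were matched for 357 of the 468 genes and 4584 of the others. TGACNNNGC, the core of the antioxidant response element that NRF2 binds, was in 16.8% of the chosen promoters on either strand, 15.5% of the others and 13.6% of all 27305 promoters. It was found in 2 of the 12 promoters available from the 2 lists above. They are shown for 60 bases around the first match, with that match in capitals. The TXNRD1 promoter holds 2 matches, and the other lies outside the bases shown. TXNRD1 is at chr12:104215655-104215714 and PGD at chr1:10398838-10398897, both on the plus strand.
TXNRD1 promoter: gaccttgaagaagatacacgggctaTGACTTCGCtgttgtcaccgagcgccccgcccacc
PGD promoter: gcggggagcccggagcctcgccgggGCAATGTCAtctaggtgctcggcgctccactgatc

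The GC box GGGCGG, a site for Sp factors, was in 73.7% of the chosen promoters, 71.3% of the others and 44.6% of all promoters. CCAAT was in 38.9%, 35.1% and 35.7% in that order. TATAAA was in 6.72%, 5.56% and 11.95%, TTTGAA, the cell cycle homology region, in 11.8%, 9.84% and 15.4%, and the E-box CACGTG in 11.5%, 11.1% and 7.43%. The CRE TGACGTCA was in 1.40%, 3.93% and 1.98% and the AP-1 site TGANTCA in 3.36%, 4.56% and 7.76%. The chosen promoters were near the other genes at the minimum for most motifs, and both differed from all promoters most in the GC box. These are matches of letters in a window and not sites.

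Among glycolysis genes 6 of 16 were chosen, ALDOA, GAPDH, PGK1, ENO1, LDHA and LDHB. LDHA, lactate dehydrogenase A, had 360 and 293 intron counts with the randomer, 813 and 835 with the control oligo and 701 in mock, with log2 ratios of -0.62 and -0.69. ENO1, enolase, had 322 and 315 with the randomer, 446 and 456 with the control oligo and 252 in mock, so the randomer libraries lay close to the control oligo ones per exon total and above mock. Oxidative phosphorylation contributed 8 of 26, among them ATP5B, the catalytic beta subunit of ATP synthase, with 448 and 421 intron counts with the randomer, 525 and 510 with the control oligo and 465 in mock. Of the cholesterol synthesis genes 4 of 11 were chosen, FDFT1, CYP51A1, SREBF1 and STARD4, and 7 of the 11 were at least 2-fold higher at both times, close to the 66.2% of all introns at the minimum.

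Of heat shock genes 4 of 14 were chosen. HSPD1, the mitochondrial chaperonin, had 229 and 93 intron counts with the randomer, 397 and 420 with the control oligo and 331 in mock. HSF1, the heat shock transcription factor, had 538 and 402 with the randomer, 873 and 869 with the control oligo and 715 in mock, over exon counts of 43 and 52, 99 and 65, and 32. HSP90AA1, the inducible cytosolic HSP90, had 136 and 154 intron counts with the randomer, 252 and 302 with the control oligo and 252 in mock. The 4 chosen of 19 endoplasmic reticulum chaperones were HSP90B1, PDIA3, PDIA6 and DNAJC10. Their exons were all called lower, where 18.2% of the chosen genes tested and 3.24% of all genes tested were. Of the 8 subunits of the TCP1 ring complex, the cytosolic chaperonin that folds actin and tubulin, 7 were chosen, a list made after the values were seen. CCT4 had 332 and 279 intron counts with the randomer, 461 and 563 with the control oligo and 357 in mock. CCT5 had 63 and 46 with the randomer, 124 and 189 with the control oligo and 82 in mock. The exception was TCP1 itself, with 83 and 125 with the randomer, 73 and 27 with the control oligo and 43 in mock, and log2 ratios of 0.74 and 3.01. Exons of 5 of the 7 were called lower, where 18.2% of the chosen genes tested and 3.24% of all genes tested were.

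Growth genes gave smaller shares. Cytosolic ribosomal protein genes had 9 of 60 chosen, RPL7A, RPL10, RPL23, RPL35A, RPL37, RPL37A, RPLP0, RPLP1 and RPS14. RPS14 had 469 and 287 intron counts with the randomer, 748 and 935 with the control oligo and 708 in mock, with log2 ratios of -0.12 and -0.89. These genes have many processed pseudogenes, and their counts are uncertain for that reason. Mitotic genes had 8 of 46, with AURKA, the spindle pole kinase, at 182 and 250 intron counts with the randomer, 362 and 455 with the control oligo and 400 in mock. TOP2A, the topoisomerase that untangles chromosomes, had 208 and 199 with the randomer, 292 and 366 with the control oligo and 189 in mock. DNA replication genes had 6 of 39, translation factors 4 of 30, aminoacyl-tRNA synthetases 4 of 24, snoRNA hosts 6 of 37, extracellular matrix genes 3 of 15, and base excision and mismatch repair 2 of 13, APEX1 and NEIL3. Coat proteins of the secretory pathway, 2 of 23, and proteasome subunits, 2 of 26, were near the 7.58% of all introns at the minimum. With the minimum over the control oligo libraries alone, that general share was 13.5%. The list shares on that minimum are not given here, so small differences from 7.58% are not read.

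Of 13 immediate early genes, 15 NF-kB and inflammatory genes and 8 interferon-stimulated genes 0 introns were chosen, where 7.58% of all introns were; in lists this small, 0 is close to that share. The median log2 ratios of these lists were 2.46 and 3.50, 3.82 and 3.72, and 1.73 and 2.71 at 9 h and 16 h, against 1.76 and 2.08 for all introns at the minimum. Of 18 p53 targets RRM2B alone was chosen, a ribonucleotide reductase subunit with 314 and 280 intron counts with the randomer, 358 and 393 with the control oligo and 318 in mock. Of 27 SR and hnRNP splicing factors SRSF9 alone was chosen, with 64 and 59 with the randomer, 121 and 99 with the control oligo and 143 in mock. The 22 lists other than the TCP1 ring complex together named 91 of the 468 genes.

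Several of the most counted introns belong to none of these lists. ALYREF, an export adaptor of messenger RNA, had 651 and 544 intron counts with the randomer, 1728 and 1633 with the control oligo and 1123 in mock, and log2 ratios of -0.85 and -0.77. Both randomer libraries lay below the other 3, and its exons had a fitted log2 change of -0.82 (SE 0.20). ANXA1, annexin A1, a membrane-binding protein abundant in epithelia, had 758 and 489 with the randomer, 1247 and 1683 with the control oligo and 1566 in mock. CYP24A1, the hydroxylase that breaks down vitamin D, had 825 and 398 with the randomer, 1180 and 1399 with the control oligo and 1012 in mock. In both, the log2 ratio was near 0 at 9 h (-0.16 and 0.04) and near -1 at 16 h (-0.966 and -0.997). C16orf72 had 1524 and 1170 with the randomer, 2639 and 2043 with the control oligo and 1664 in mock, with ratios of -0.24 and 0.01.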

How the data were processed

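The authors deposited whole-number counts of reads per gene symbol, one table for exons and one for introns. The submitters' processing notes name TopHat2, HTSeq and hg19. The strand setting of the count is not given in these sources, and overlapping or antisense genes may share counts. Per table, 28 rows whose symbols had turned into dates were left out of the introns and tests; exon totals include them. The introns and gene lists were chosen with earlier results of these data known. Log2 ratios add 0.5 to each count and use the exon totals. Intervals of ratios are exact 95% binomial intervals of the counts, cover counting error only and treat PCR copies as independent molecules. Intervals of shares are exact 95% binomial intervals over genes. They treat genes as independent and cover neither counting error nor variation between libraries. The edgeR 4.0.16 quasi-likelihood test (R 4.3.3) used the 4 oligo libraries, time as a term, TMM factors of the exon table, and rows with at least 10 counts in 2 libraries. It left 1 residual degree of freedom. The SE beside a fitted change is the absolute log2 change divided by the square root of that test's F statistic, and is not an error from replicates. P-values were adjusted (Benjamini-Hochberg) over all rows and the fit was tested on simulated data. GENCODE 29 (GRCh38) gave lengths, overlaps and embedded genes, matched by symbol; blastn 2.17.0 aligned pseudogenes to protein-coding transcripts. Named genes are the 10 most counted, the 10 lowest by the larger ratio, the 3 most counted of each list, the 5 highest and lowest exon changes, the 3 on each side of the limit, and the 3 at each end of control oligo over mock; pseudogene hosts and other genes named beside them were chosen after their values were seen. Alternatives, DESeq2 1.42.0 among them, are given in the closing section. Some items are not reported here.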

Additional observations from a re-analysis of the deposited data

Results flagged for a closer look

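For 9 of the named introns the randomer over control oligo log2 ratio had opposite signs at 9 h and 16 h, with counting intervals that left out 0 at both times. The difference between the times was not tested, because each time holds 1 library per group. Introns above the control oligo at 9 h and below it at 16 h were FAM172A (0.091 and -0.56), GAPDH (0.47 and -0.67), MCM3 (0.46 and -0.42), NCL (0.23 and -2.06), RPL7A (0.42 and -0.78), UGDH (0.25 and -0.29) and UQCRB (0.29 and -0.83). FBXL6 (-0.99 and 0.50) and SMARCD2 (-0.88 and 0.55) went the other way.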

How the results depend on the processing

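No paired analysis was possible because each group has 1 library and groups thus share no 2 replicate numbers; time was a term in the fits. The number of introns chosen was 468 and depended on the scale: it was 1331 when counts were divided by the sum of exon and intron counts and 3546 when divided by intron totals, which are themselves higher with the randomer. It was 291 at a ratio limit midway between 1 and 1.5, 884 at a ratio of 2, 936 at a minimum of 20 counts and 92 at a minimum of 200. TMM factors, totals without RN45S, mock as the control at 16 h, 5 added to each count, a minimum over the control oligo libraries and, added after seeing the data, totals without date rows gave 404 to 609. The 609 came from the minimum over the control oligo libraries. Only 4496 introns met that minimum, so the share chosen was 13.5% in place of 7.58%. Of the exon calls, 802 genes higher, 370 lower and 78 of the chosen genes lower became 526, 88 and 21 without the time term. DESeq2 called 812 genes higher, 2 of them chosen. Of the intron calls, the intron table's own TMM factors gave 1895 higher and 563 lower, 356 of them chosen, against 5709 and 6. With DESeq2, 25 introns were lower, 18 of them chosen, and 6999 were higher, 2 of them chosen. Of the chosen introns edgeR called 0 higher, also at an unadjusted p under 0.05. The cause of these shifts was not tested. The 5 highest and 5 lowest exon changes kept their sign in every fit run. Intron ratios did not keep theirs: with intron totals, all 130 introns at or above the control oligo at both times were below it at both. Depth limits single introns: 236 of the 468 had under 100 counts on average.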
